A study of Mus musculus with 12 samples.

Results

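A set of 10 genes of the bone morphogenetic protein (BMP) pathway and its immediate targets were followed in mouse embryonic stem cells. They were listed by symbol: the ligand Bmp4, the type I receptor Bmpr1a, the receptor-regulated SMADs Smad1 and Smad5, the inhibitory SMADs Smad6 and Smad7, and the inhibitors of DNA binding Id1, Id2, Id3 and Id4. All 10 symbols matched a gene, out of 34079 genes that could be assigned a transcript, and together they had 30 transcripts with deposited values. The cells were a male line, DTCM23/49 XY, grown on gelatin in serum with leukemia inhibitory factor. The genotype of the line is not described further in the sources used here, and no drug treatment is described. A confluent culture was divided and passaged 8 times to give 2 biological replicates, so both replicates descend from the same culture and p-values measure the spread between these cultures and their libraries. All cells received 4-thiouridine (4sU, 200 µM), a uridine analog that is built into RNA made during the labeling pulse, for 15, 30 or 60 min. RNA that carried 4sU was biotinylated and captured with streptavidin beads (labeled RNA), and RNA taken before capture was sequenced beside it (total RNA). With 2 replicates, 3 labeling times and both fractions there were 12 libraries, 6 labeled and 6 total. No library without 4sU was analysed here, so the capture background is unknown.

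BMP ligands bind paired type I and type II serine/threonine kinase receptors, and the type I receptor phosphorylates SMAD1 and SMAD5, which enter the nucleus with SMAD4. The Id genes are the classical direct targets. Their proteins have a helix-loop-helix but no DNA-binding region, so they hold E proteins and other helix-loop-helix factors away from DNA. SMAD6 and SMAD7 are induced by the same signals and dampen them. In mouse embryonic stem cells, BMP from serum acting through Id genes is known to help leukemia inhibitory factor hold back neural differentiation.

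The promoters of Id3 and Id2 are shown because SMAD-binding letters in Id promoters are the textbook link between the receptor and these targets, and because Id3 was the member with a called difference between fractions. Each line gives the 250 bases before the transcription start from RefSeq (GRCm38.p6), 5′ to 3′ on the strand of the gene. Capitals mark the SMAD box GTCT, which reads AGAC when it lies on the other strand, and the palindromic GC-rich SMAD element GGCGCC. The Id3 gene is at chr4:136143822-136145392 and the Id2 gene at chr12:25093799-25096092, and Id1 and Id4 are at chr2:152736251-152737410 and chr13:48261116-48266028. The Id3 stretch is chr4:136143572-136143821 on the plus strand and the Id2 stretch is chr12:25096093-25096342 on the minus strand.
Id3: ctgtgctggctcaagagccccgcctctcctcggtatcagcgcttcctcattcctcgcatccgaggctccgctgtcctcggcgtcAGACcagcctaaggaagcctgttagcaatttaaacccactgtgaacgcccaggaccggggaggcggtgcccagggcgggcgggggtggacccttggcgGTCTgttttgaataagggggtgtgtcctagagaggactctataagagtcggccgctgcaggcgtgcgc
Id2: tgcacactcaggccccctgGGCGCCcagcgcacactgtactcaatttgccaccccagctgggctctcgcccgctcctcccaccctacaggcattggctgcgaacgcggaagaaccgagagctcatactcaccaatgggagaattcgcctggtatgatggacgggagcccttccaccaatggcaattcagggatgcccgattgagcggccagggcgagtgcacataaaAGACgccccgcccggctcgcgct

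The Id3 stretch held 2 SMAD boxes, which begin at -166 and -68 from the start, and no GC-rich element. The Id2 stretch held 1 GC-rich element at -231 and 1 SMAD box at -23. The short box is common: 82.9% of 32851 promoter stretches of the same length held it on either strand, while 9.59% held the GC-rich element. Promoters were available for 8 of the 10 genes, all but Id1 and Smad7. Among them the GC-rich element was found at Id4, at Bmpr1a and at 1 of the 3 Smad5 starts as well as at Id2. These windows had 62.8% to 78.8% G and C, while the median of all stretches was 52.4% and the upper quartile 61.2%. The share of all stretches that held the element is thus not matched for base content. The combined BMP response element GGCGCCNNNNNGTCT, in which N is any base, was in 0.07% of all stretches and in none of the windows of these 8 genes. Id1 and Smad7 were not searched, and neither were bases further upstream of any gene.

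Values were taken as RSEM abundances, which are divided by transcript length. How they were scaled is not described in the sources used here, and comparisons of level between genes rest on that reading. They sum to a fixed total: exonic and intronic entries of a library together sum to between 19988830 and 19992902, so division by 20 gives a number close to TPM, the usual length-normalized scale. A value of 1 or below was left blank by the authors and taken as 0. The stem cell markers were high throughout: 9 of 10 listed markers were matched and all 9 passed a mean of 20, with a sum of 20838 to 29312 in total RNA. Lists for fibroblasts or feeders, primitive endoderm, mesoderm, neural cells and trophectoderm each summed to at most 143.45 there, and 3 of the 24 matched genes on those lists passed the same mean. The share of a library's abundance in introns ran from 6.52% to 7.40% in total RNA and from 6.98% to 14.8% in labeled RNA, with the highest shares in the labeled libraries of replicate 1 at 15 and 60 min (14.8% and 13.9%) and the lowest in those of replicate 2 at the same times (7.23% and 6.98%).

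Summed over transcripts, Bmpr1a and Smad5 led the total RNA, and the Id genes and Smad6 were low. The sums cover 6 transcripts for Smad5, 5 for Smad7, 4 for Bmpr1a, 3 for Id3 and 1 each for Id2 and Id4. The order of genes therefore depends on the summing: by their main transcripts Smad7 (Smad7-001, 26.5) and Id3 (Id3-001, 27.0) were level in total RNA. Bmpr1a had the highest exonic abundance in total RNA, 469 ± 87.8 (SD, n = 6), or 23.5 after division by 20. Smad5 followed at 321 ± 35.9, and the 2 ranges overlapped, since the lowest Bmpr1a library (345) was below the highest Smad5 library (387). The most abundant Smad5 entries were the noncoding Smad5-004 (99.1) and Smad5-005 (79.0), and its coding transcripts were at 38.8 to 45.5 each. Bmp4 (82.2 ± 13.5), Smad1 (77.1 ± 10.3) and Smad7 (75.1 ± 19.2) came next and did not differ beyond their spread. Id3 was the most abundant Id gene at 32.1 ± 12.5. Id2 (19.0 ± 6.44) and Id4 (18.2 ± 12.6) lay within each other's spread, as did Id1 at 10.7 ± 4.33 within that of Id4. Smad6 was barely detected, at 1.95 ± 1.11, and was blank in 1 of 6 total libraries.

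In a single fit across all genes, the labeled and total fractions were compared to ask which genes were over-represented among RNA made in the last hour or less. Id3 was higher in labeled RNA, and it was the only member called. Its exonic abundance in labeled RNA was 111 and 80.3 at 15 min, 105 and 73.8 at 30 min, and 41.1 and 81.9 at 60 min in replicates 1 and 2. In total RNA the same libraries had 31.1 and 33.5, then 31.5 and 20.6, then 55.0 and 21.2. Of the 6 labeled libraries, 5 exceeded every total library, and the exception was replicate 1 at 60 min, which fell below its own total RNA. The log2 difference was 1.34 (SE 0.28), with an adjusted p of 0.00969 by limma on log2(value + 1), Benjamini-Hochberg over 13977 genes. Of these genes 16.8% were called, 5.28% with higher labeled values, and the median difference was -0.05, so Id3 stood at percentile 97.7. A further fit had a block for each labeled and total pair of the same time and replicate number (the replicate block). In it the adjusted p of Id3 was 0.037 (limma). With only replicate 2 or only replicate 1 the differences were 1.64 and 1.03, neither called (adjusted p = 0.499 and 0.424), in fits with 6 libraries.

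**Figure D1:**
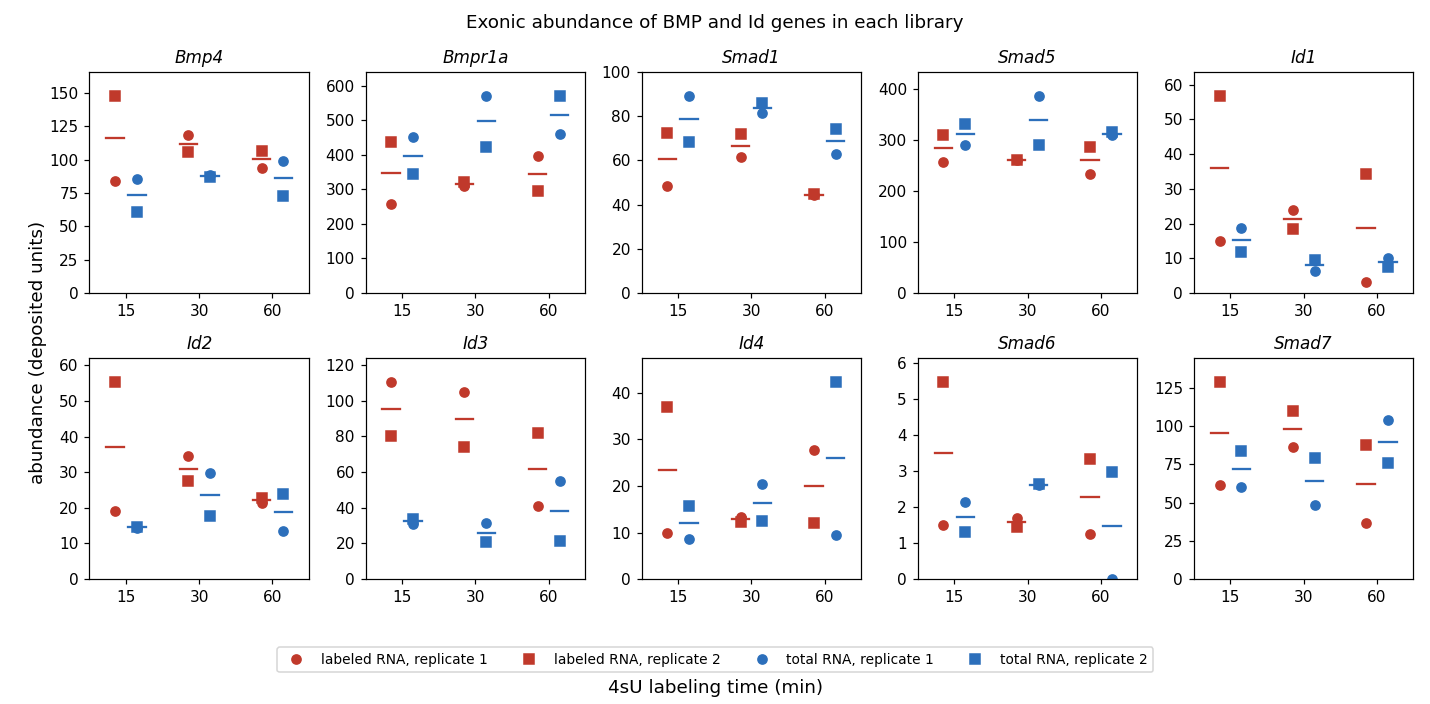
Exonic abundance in deposited units (y axis, from 0, own scale in each panel) against labeling time in minutes (x axis) for the 10 genes. Red is labeled RNA, blue is total RNA, circles and squares are replicates 1 and 2, and bars are the mean of 2; Id3 has 5 of 6 labeled points above all total points, while Smad5 is lower in labeled RNA in all 6 pairs.

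Id2 is best known for its need in innate lymphoid cells. Its labeled values were 19.0 and 55.4 at 15 min, 34.5 and 27.6 at 30 min, and 21.4 and 22.7 at 60 min. Total values were 14.4 and 14.7, then 29.7 and 17.7, then 13.6 and 23.8, so the groups overlapped while the labeled value was higher in 5 of 6 pairs. The log2 difference of 0.60 (SE 0.30) was not called (adjusted p = 0.189, limma). Id2 had a mean of 19.0 in total RNA and 30.1 in labeled RNA, so it passed the filter of a mean of 20 only through the labeled libraries. Id1, the Id gene most often used as a BMP readout, did not pass it and neither did Id4 and Smad6. Id1 was 14.9 and 56.9 in labeled RNA at 15 min, 24.1 and 18.6 at 30 min, and 3.20 and 34.3 at 60 min, against 6.46 to 18.6 in total RNA with a median of 9.76. Its labeled values thus covered both the lowest and the highest of its 12 libraries. Fitted without the filter, the Id1 difference was 0.86 (SE 0.50, adjusted p = 0.338), that of Id4 was 0.08 (SE 0.44) and that of Smad6 was 0.25 (SE 0.42), none called.

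Bmp4 and Smad7 had more labeled than total RNA in most pairs, and the receptor and receptor-regulated SMADs less, but none of these 5 genes was called. Bmp4, the ligand, ranged from 83.6 to 148 in labeled RNA (median 106) and from 60.7 to 99.2 in total RNA (median 86.1), with a difference of 0.40 (SE 0.17, adjusted p = 0.120, limma). Smad7 ranged from 36.4 to 129 in labeled RNA and from 48.6 to 104 in total RNA, with a difference of 0.11 whose 95% interval ran from -0.54 to 0.76. Smad5 was lower in labeled RNA in 6 of 6 pairs, with 234 to 311 in labeled and 291 to 387 in total RNA, yet its difference was small (-0.25, SE 0.11, adjusted p = 0.140). Bmpr1a was lower in 5 of 6 pairs, at 259 to 436 against 345 to 571, with a difference of -0.48 (SE 0.16, adjusted p = 0.0614). Smad1 was likewise lower in 5 of 6 pairs, at 44.4 to 72.5 against 63.2 to 89.4, with a difference of -0.44 (SE 0.14, adjusted p = 0.0532). Those 2 adjusted p-values lay close to the threshold of 0.05: after libraries were centred on their medians both genes were called lower (adjusted p = 0.0203 for Bmpr1a and 0.0328 for Smad1), as they were after quantile normalization and without the labeled 15 min library of replicate 2. In that library 9 of the 10 members had their highest labeled exonic value, Id3 being the exception. Over all genes 22.2% were called after centring, 21.1% after quantile normalization and 20.6% without that library, against 16.8% in the main fit. No member's exonic groups were free of overlap, against 10% of the genes tested.

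**Figure D2:**
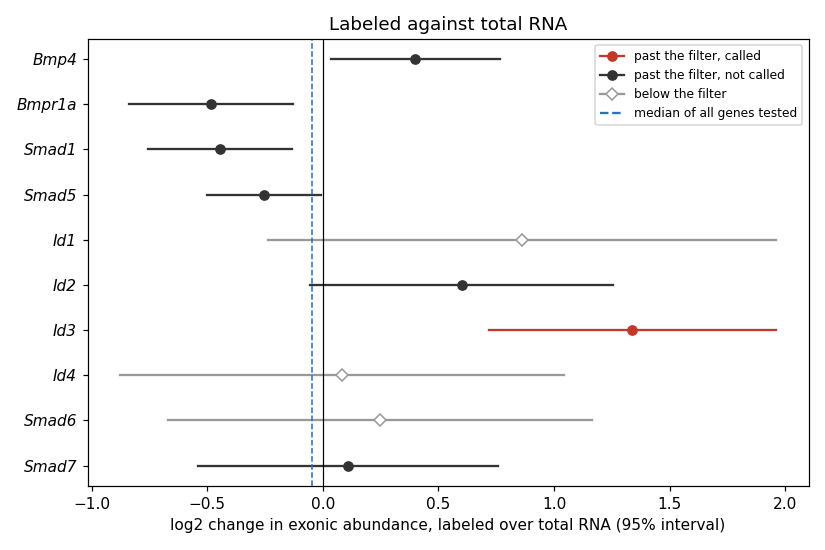
Log2 difference in exonic abundance between labeled and total RNA (x axis, 6 libraries each) for each gene (y axis), with 95% intervals. Filled points passed the filter and open diamonds did not; the Id3 interval, from 0.72 to 1.96, is the one called, and the dashed line is the median of all genes tested, -0.05.

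Intronic abundance reports unspliced RNA and was compared between fractions in the same way. It was higher in labeled RNA for the typical gene, with a median log2 difference of 0.65 over 9117 genes, of which 32.6% were called and 32.3% were called higher. Centring on library medians or quantile normalization brought that median to about 0 (-0.06 and -0.02), so the members are also given relative to it. Only 4 members passed the filter, and Id3 was called with a difference of 1.26 (SE 0.44, adjusted p = 0.0415, limma), or 0.61 above the median gene. Intronic Id3 was 267 and 85.6 at 15 min, 169 and 115 at 30 min, and 37.7 and 182 at 60 min in labeled RNA. In total RNA it was 52.4 and 77.3, then 38.5 and 36.8, then 105 and 25.2. These values exceeded the exonic values of Id3 in 11 of 12 libraries.

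Almost all of that signal came from a single entry, the intron of the noncoding transcript Id3-003, at 136 in labeled and 55.4 in total RNA on average. In the GENCODE annotation 62.4% of the bases of this intron lie inside exons of other Id3 transcripts. The intron of the coding transcript Id3-001 overlapped exons over 55.0% of its bases, and the only intron of Id3 clear of exons had a value, 26.8, in 1 library (labeled, 15 min, replicate 1) and 0 in the other 11. The intronic value of Id3 thus does not separate unspliced RNA from exonic sequence, and the call was absent when libraries were centred (0.55, adjusted p = 0.459), quantile normalized (0.59, adjusted p = 0.445), fitted without a filter (adjusted p = 0.056) or fitted without replicate 2 (0.99, adjusted p = 0.0514). The intron of Id1 lies wholly within the exon of Id1-002.

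Introns of Bmpr1a, Smad5 and Smad7 are mostly or wholly clear of exons of the same gene, and overlap with exons of other genes was not checked. They showed how much the labeled libraries varied among themselves. Intronic Smad5 was 307, 141 and 362 in replicate 1 and 117, 202 and 76.9 in replicate 2 at 15, 30 and 60 min of labeling, while total RNA stayed between 105 and 135. Intronic Bmpr1a was 141, 35.9 and 153 against 21.9, 61.4 and 24.3, with total RNA between 49.4 and 58.9. Intronic Smad7 was 110, 30.7 and 79.4 against 14.6, 42.1 and 20.1, with total RNA between 17.1 and 33.4. In each of these genes the labeled libraries of replicate 1 at 15 and 60 min were above every total library, and those of replicate 2 at 60 min were below all or nearly all of them. The 9 members with an intronic value in labeled RNA all had their highest value in 1 of those same 2 replicate 1 libraries, which also held the largest intronic shares of all genes. None of the 3 was called, with differences of 0.51 (SE 0.35) for Smad5, 0.54 (SE 0.43) for Smad7 and 0.01 (SE 0.45) for Bmpr1a. Relative to the median gene these are -0.14, -0.10 and -0.64, and under centring or quantile normalization all 3 had a negative sign. The sign for Bmpr1a followed the libraries used: it was 0.76 without replicate 2, -0.74 without replicate 1 and -0.78 without the 2 replicate 1 libraries, which were singled out after their high values were seen.

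**Figure D3:**
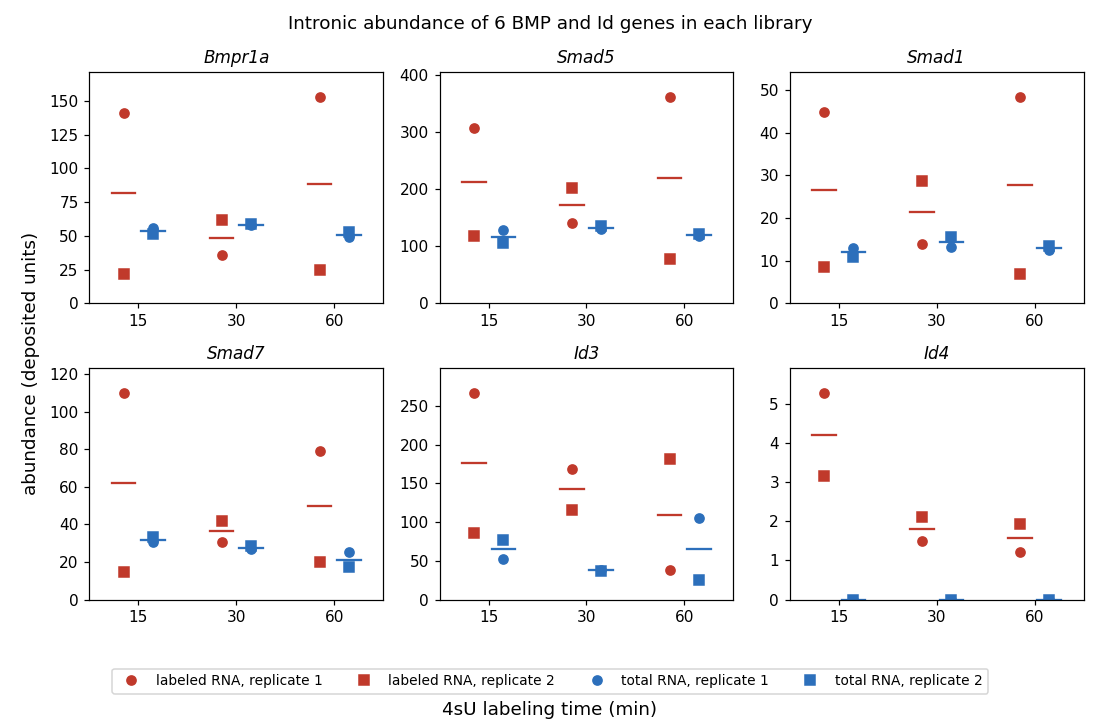
Intronic abundance in deposited units (y axis, from 0, own scale in each panel) against labeling time in minutes (x axis) for 6 of the genes. Red is labeled and blue total RNA, circles and squares are replicates 1 and 2, and bars are means of 2; in Bmpr1a, Smad5, Smad1 and Smad7 the red circles at 15 and 60 min lie above all blue points, and Id4 has values in labeled RNA alone.

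Id4 was the member whose intronic groups did not overlap. Its introns, which are clear of exons of the same gene, had 5.27 and 3.15 at 15 min and 1.22 to 2.11 at the later times in labeled RNA. They were blank in all 6 total libraries. Over genes with any intronic value, 12.9% had groups without overlap. The values are close to the limit of 1 below which the table is blank, so neither a fold nor a p is given, and Id4 was below the filter. Intronic Bmp4 was also below it, with 14.9 and 1.04, then 1.04 and 5.81, then 3.23 and 3.79 in labeled RNA and a single value of 2.77 in total RNA.

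The ratio of intronic to exonic abundance was compared because it follows unspliced RNA with the gene's own exonic level removed. The typical gene had a higher ratio in labeled RNA by 0.70 on the log2 scale, and 24.9% of 10857 genes were called. None of the 7 members tested was called by limma, and 1, Bmp4, had an unadjusted p below 0.05. Its difference of 1.47 (SE 0.56, adjusted p = 0.0618, limma) was called with the replicate block (adjusted p = 0.0359, limma), where 32.1% of all genes were called. With a pseudocount of 20 in place of 1 the Bmp4 difference was -0.07. Smad1 (1.00, SE 0.48) and Smad5 (0.76, SE 0.40) lay 0.30 and 0.07 above the median gene, and Id3 was at -0.08 (SE 0.29).

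At the level of single transcripts, 16 of the 30 passed the filter and 4 were called, against 17.3% of 45495 transcripts. The coding transcript Id3-001 was higher in labeled RNA, and 5.24% of all transcripts were. It measured 27.6 to 95.04 in labeled RNA with a median of 67.8, against 13.6 to 47.0 in total RNA with a median of 25.8. Its difference was 1.29 (SE 0.33, adjusted p = 0.0205, limma).

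The other 3 were lower in labeled RNA, as were 12.1% of all transcripts. Smad1-001 was 16.0 to 27.1 (median 21.5) in labeled and 33.5 to 44.2 (median 37.7) in total RNA, so these groups did not overlap, as in 10.2% of transcripts tested, and its difference was -0.81 (SE 0.15, adjusted p = 0.00464). It stood at percentile 3.0 of all transcripts tested. Smad1-003, the other Smad1 transcript past the filter, was 15.2 to 31.6 in labeled and 18.1 to 29.5 in total RNA, with a difference of -0.21 (SE 0.22) that was not called. Whether these transcripts of 1 gene differ in their response was not tested. Smad5-001 was 22.9 to 32.5 against 35.3 to 44.0 (difference -0.51, SE 0.14, adjusted p = 0.0287), again without overlap, while the noncoding Smad5-004 and Smad5-005, the most abundant entries of that gene, had differences of -0.12 and -0.08 and were not called. Bmpr1a-003 was 67.4 to 115 against 96.6 to 149 (difference -0.53, SE 0.16, adjusted p = 0.0425). The main Bmpr1a transcript, Bmpr1a-001, had a difference of similar size, -0.52 (SE 0.19), and was not called (adjusted p = 0.0746). With the replicate block Smad1-001 was called (adjusted p = 0.0277) and the other 3 were not. How reads that several transcripts share were assigned to each entry is not described in the sources used here. Some overlapping entries held similar values: the introns of Bmpr1a-001, Bmpr1a-002 and Bmpr1a-004 averaged 14.2, 13.6 and 12.6 in total RNA. Values of single transcripts can thus carry an error that the replicates need not show, and sums per gene may hold shared signal more than once.

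**Figure D4:**
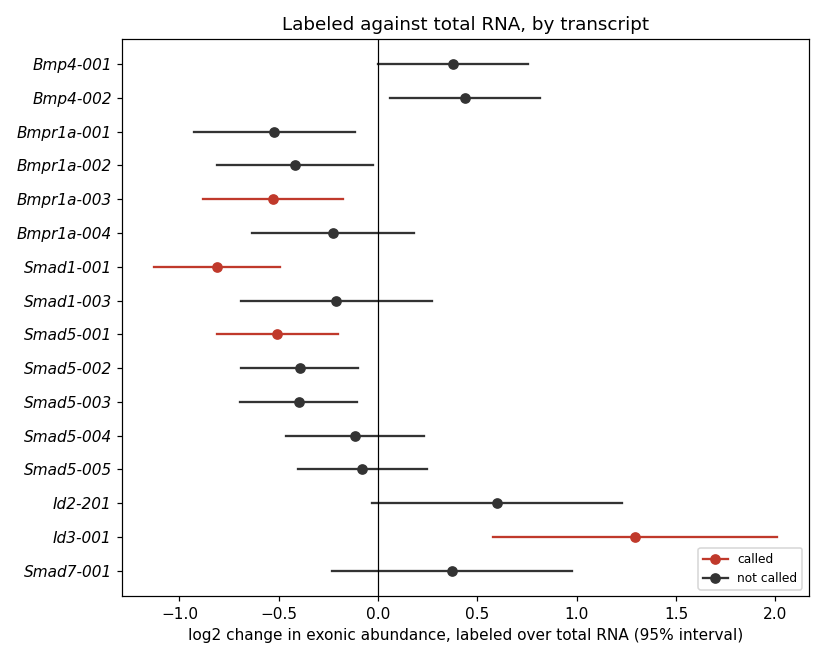
Log2 difference in exonic abundance between labeled and total RNA (x axis, 6 libraries each) for the 16 transcripts past the filter (y axis), with 95% intervals. Red marks the 4 called: Id3-001 to the right of 0, and Smad1-001, Smad5-001 and Bmpr1a-003 to the left.

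Labeling time was compared to ask whether longer pulses changed the members' place in labeled or total RNA, with 2 libraries against 2. No member was called for labeled RNA at 60 against 15 min, for total RNA at 60 against 15 min or for the difference between those contrasts, and limma called 0% of the 13977 genes in each of the 3. At an unadjusted p below 0.05 there were 178, 108 and 162 genes and 0 of the 7 members. The labeled change from 15 to 60 min was -0.69 for Id3 (95% interval -1.79 to 0.41), -0.65 for Smad7 (-1.73 to 0.43), -0.54 for Id2 (-1.75 to 0.67) and -0.41 for Smad1 (-1.02 to 0.21). For Bmpr1a it was 0.02 (-0.64 to 0.69) and for Smad5 -0.13 (-0.61 to 0.36). With replicate 2 or replicate 1 alone the change was 0.03 and -1.41 for Id3, -1.25 and 0.16 for Id2, and -0.56 and 0.61 for Bmpr1a, so none of the 3 had a sign that both replicates shared. Intervals this wide leave changes of more than 1 log2 unit undetected for Id3, Id2 and Smad7.

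Rates were formed as descriptions, without a test. Synthesis was labeled exonic abundance per hour, processing was synthesis over total intronic abundance, and degradation was synthesis over total exonic minus intronic abundance. As every library is scaled to the same sum, a rate falls with pulse length by construction, and the place of a gene among all genes is given instead. By this measure of synthesis Bmpr1a and Smad5 ranked highest among the members, at percentiles 77.8 and 74.6 of 20732 genes. Bmp4 (59.4), Smad7 (56.1) and Id3 (55.6) followed. The ranks rest on labeled abundance summed over transcripts, 4 for Bmpr1a and 6 for Smad5. The Smad5 value includes its noncoding transcripts. Id2 (39.6), Id1 (37.6) and Id4 (31.9) were below the middle and Smad6 (5.93) was near the bottom. For degradation, over 17229 genes, Id1 (84.4), Smad7 (81.2) and Id2 (80.6) ranked high and Smad1 (21.9) and Bmpr1a (20.4) low. Of these 5 genes Smad7 kept its place between replicates, at 79.7 and 80.6, and Smad5, at 60.7, was at 58.4 and 60.9. Id1 was at 65.5 and 91.9, Id2 at 64.0 and 86.0, Smad1 at 13.8 and 37.9, and Bmpr1a at 9.24 and 43.3. Id3 has no degradation rate, because its intronic value exceeds its exonic value. Subtracting intronic abundance raises this rate, and by unlike amounts: in total RNA 26.9 is taken from 75.1 for Smad7, with introns of 5 transcripts summed. For Bmp4, at percentile 62.8, 0.46 is taken from 82.2. Id1 was below the filter.

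Sequence features of the main coding transcript of each gene were set beside 10637 genes past the filter, since 4sU enters at uridines and AUUUA elements in 3′ untranslated regions are bound by decay factors. Id3 has 312 uridines in 1278 bases (percentile 27.4 for their number) and no ATTTA in a 3′ untranslated region of 536 bases. Id1 has 224 uridines (percentile 18.6). Bmpr1a has 1790 uridines (percentile 95.6) and Smad5 has 1292 (percentile 88.6), and Smad1, the third gene that was lower in labeled RNA in most pairs, has 800 (percentile 69.2). Smad7, which was higher in labeled RNA in most pairs, has 999 (percentile 79.6). Smad6 has 586, Id4 has 458, Id2 has 369 and Bmp4 has 321. Whether the number of uridines goes with the difference between fractions was not tested. ATTTA was present in 61.3% of 9617 3′ untranslated regions. Bmpr1a has 8 copies, Smad5 has 5, Smad7 has 4, Id2 has 3 and Smad6 has 2, while Id1, Id3, Id4, Bmp4 and Smad1 have 0. The highest densities are those of Smad6, with a 3′ untranslated region of 378 bases (percentile 93.0), and Id2 (percentile 86.5). For these 2 genes 1 of the sites is shown as 30 bases with the element in capitals.
Id2: ctgtgataccgttATTTAtgagagactttc
Smad6: atcatctacctagATTTAatataaagtttt

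The remaining genes of the pathway were taken from lists by role. Of 81 listed genes 35 could be tested for exonic abundance, and 9 were called, 1 higher and 8 lower in labeled RNA, with a median difference of -0.22 against -0.05 over all genes. Over all genes 16.8% were called, 738 higher and 1615 lower of 13977. No receptor (0 of 6) and no ligand (0 of 1) was called. Among targets other than the members, 1 of 7 was called, Klf2, a zinc-finger factor of the pluripotency network (0.76, SE 0.22, adjusted p = 0.0376, limma). Among other SMADs and cofactors 2 of 8 were called lower, the acetyltransferase Crebbp (-0.60, SE 0.14) and the activin and Nodal effector Smad2 (-0.43, SE 0.13). Among inhibitors 4 of 10 were called lower, led by the ubiquitin ligase Smurf2 (-0.55, SE 0.15), the extracellular BMP binder Twsg1 (-0.45, SE 0.13) and the phosphatase Ppm1a (-0.39, SE 0.11). Both Tcf3 (-0.49, SE 0.11) and Tcf4 (-0.43, SE 0.10), E proteins that Id proteins bind, were called lower, and the third, Tcf12, was not (-0.32, SE 0.17). Without the filter on low values Klf2 (adjusted p = 0.0607), Smad2 (0.0540), Twsg1 (0.0609) and Ppm1a (0.0502) were not called by limma. For introns 27 could be tested and 8 were called, all higher, against 32.3% called higher over all genes. Of the 8, 5 were targets (5 of 5 tested, out of 18 listed). Overlap of the listed genes' introns with exons was not taken into account. Without the filter on low values the target Zfp36l1 was not called (adjusted p = 0.0629, limma). Centring and quantile normalization were not applied to these lists. The genes whose log2 exonic abundance followed that of Bmpr1a most closely over the 12 libraries were Dmxl1 (Pearson r = 0.962), Slc30a4 (0.961) and Vps41 (0.956), out of 13976 genes that share library and scaling with it.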

How the data were processed

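The authors aligned reads with STAR 2.5.0 and estimated abundances with RSEM (mm10 in the submitters' notes). The deposited signal was taken as a length-normalized abundance for the exons and for the introns of each transcript. Values of 1 or below are blank and were set to 0. Read totals per library are not given in the sources used here, so no counting error could be attached. Transcripts were assigned to genes with GENCODE M1 (75.1% of Ensembl transcripts with exon values found) and summed. Genes with a mean of at least 20 over 12 libraries were fitted with limma 3.58.1 (R 4.3.3) on log2(value + 1), with a mean-variance trend, labeling time and fraction as terms (or 6 group means for the time contrasts), and Benjamini-Hochberg at 0.05. The script was tested on simulated data. Named genes were the 10 members, up to 3 called genes per role with the largest change, the 3 nearest profiles and each called transcript. Members and lists were chosen with earlier results of these data known. Pairs are labeled and total libraries of the same time and replicate number. The labels give the numbers only, so that a number marks the same culture throughout was assumed. Deviations of same-numbered libraries correlated at -0.07, 0.05 and -0.19. Alternatives covered pseudocount, filter, scaling, trend, block and left-out libraries. The block was the pair of same time and replicate number, or the replicate number alone in the time contrasts.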

Additional observations from a re-analysis of the deposited data

Results flagged for a closer look

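Among 36 groups of 6 libraries (exonic or intronic abundance of a member in labeled or total RNA), 3 held a library far from the other 5, and chance gives about 1 in 20. Intronic Bmp4 in labeled RNA was 14.86 at 15 min in replicate 1, with the next library at 5.81. Intronic Id2 in total RNA was 4.93 at 30 min in replicate 1, with the next at 1.72. Exonic Id4 in total RNA was 42.4 at 60 min in replicate 2, with the next at 20.4, and this value sets much of the spread of Id4.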

How the results depend on the processing

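Of 7 members with exonic tests, 1 was called. The number was 3 after centring on library medians, 3 after quantile normalization, 3 without the labeled 15 min library of replicate 2, 2 without a mean-variance trend and 2 with the most abundant transcript per gene, and Id3 was among them each time, with Smad1 or Smad1 and Bmpr1a called lower. It was 0 to 0 without replicate 1 or 2, fits in which 0 and 5 of 13977 genes were called at all. Over all genes the share called, 16.8%, was 22.2% after centring and 21.1% after quantile normalization. It was 20.6% without the labeled 15 min library of replicate 2, 15.7% without the trend and 18.6% with the most abundant transcript. With a filter of 100 Id3 is not tested and Bmpr1a is the 1 member called. For intronic abundance the number, 1, was 0 with a filter of 100, 0 after centring, 0 after quantile normalization and 0 with introns clear of exons (chosen after seeing the data), where Id3 is not tested. It was 2 without a filter (Id4 and Bmp4, at or near 0 in total RNA, and not Id3), 2 without the labeled 15 min library of replicate 2, 2 without the labeled 15 and 60 min libraries of replicate 1 (chosen after seeing the data), and 1 to 2 without replicate 1 or 2 (Id3 not called without replicate 2). Over all genes the intronic share called, 32.6%, was 18.8% after centring, 18% after quantile normalization and 22.9% without a filter. It was 54.2% without the labeled 15 min library of replicate 2, and 12% and 52.7% without replicate 1 or 2. For the intron-to-exon ratio the number, 0, was 1 without a filter (Id4), 1 with the replicate block, 4 without the labeled 15 min library of replicate 2, and 0 to 5 without replicate 1 or 2. Over all genes the share called moved alike, from 24.9% to 59.3% without that library and to 4.61% and 41.6% without replicate 1 or 2. For transcripts the number, 4, was 1 with a filter of 100, 7 after quantile normalization, 7 without that library, 1 with the replicate block, and 0 to 0 without replicate 1 or 2, with 0 and 7 called of 45495. The share of all transcripts called, 17.3%, was 26.7% with a filter of 100 and 19.3% after quantile normalization. It was 22.9% without that library and 9.77% with the replicate block. The causes were not tested. Log2 differences that were not called in the fits reported changed sign as follows. For introns of Smad5, Bmpr1a and Smad7 they were -0.19, -0.69 and -0.16 after centring and -0.12, -0.67 and -0.13 after quantile normalization. With replicates or replicate 1 libraries left out, they ran from -0.027 to 0.99 for Smad5, from -0.78 (called) to 0.76 for Bmpr1a and from -0.16 to 1.20 for Smad7. For the ratio of Id2, Bmpr1a and Smad7 they were -0.087, -0.24 and -0.30 after centring and -0.13, -0.26 and -0.10 after quantile normalization, and with libraries left out the ratio ran from -0.40 to 1.39 for Bmpr1a and from -0.67 to 1.42 for Smad7. With a pseudocount of 20 the ratio was 0.055 for Id3, -0.16 for Id2 and -0.068 for Bmp4. Without the labeled 15 min library of replicate 2 the ratio of Id3 was 0.091, exonic Smad7 was -0.050, the labeled change from 15 to 60 min was 0.20 for Id2, 0.0095 for Smad5 and 0.26 for Bmp4, and its excess over the total change was 0.024 for Bmpr1a, 0.024 for Bmp4 and 0.068 for Smad1. Exonic Smad7 ran from -0.21 to 0.51 with replicates or replicate 1 libraries left out. The block lowered the exonic calls over all genes from 2353 to 1270 and the transcript calls from 7870 to 4444. It raised the intronic calls from 2976 to 3848 and the ratio calls from 2703 to 3484, and changed no other member's call. The time contrasts could not be tested without a replicate, as no residual degrees of freedom remain, but the values without replicate 1 and without replicate 2 differed in sign for several members. The labeled change from 15 to 60 min was 0.028 and -1.41 for Id3, -1.25 and 0.16 for Id2, -0.56 and 0.61 for Bmpr1a and -0.47 and 0.16 for Bmp4. The total change was -0.64 and 0.80 for Id3, 0.66 and -0.074 for Id2, -0.068 and 0.089 for Smad5, -0.14 and 0.78 for Smad7 and 0.11 and -0.49 for Smad1. The difference between them was 0.66 and -2.21 for Id3, -1.91 and 0.24 for Id2, -1.29 and 0.58 for Bmpr1a and -0.80 and 0.37 for Smad1. No member was called in them under any other setting. Of 123 alternative rate percentiles, 49 moved by more than the spread between replicates. The limits are 2 replicates from the same parent culture, no read totals per library, no library without 4sU, and labeled libraries whose intronic share differed by replicate.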
